A study of Mus musculus with 8 samples.

Results

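The genes described here are 10 genes whose products build the muscle side of the neuromuscular junction: Musk, Lrp4, Dok7, Rapsn, Colq and the acetylcholine receptor subunit genes Chrna1, Chrnb1, Chrnd, Chrng and Chrne. They were chosen by name, with the high Musk value in male knockout spines already known from these libraries, so all values and counts that involve the male libraries, over both sexes and between the sexes included, are a description and support nothing about the list. All 10 were found by symbol among the 27179 genes of the deposited count table, and all 10 passed the filter on low counts that left 18104 genes.

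RNA was profiled by mRNA sequencing from whole spines of E18.5 mouse embryos. The groups were male knockout (male KO), male wild type (male WT), female knockout (female KO) and female wild type (female WT), with 2 libraries each. KO is the knockout that the labels call Pax1-Enh. The labels give no strain, and they do not say whether the 2 replicates of a group came from separate embryos, so any p-value measures the spread between these samples, which may be technical.

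At the neuromuscular junction a motor axon releases acetylcholine onto a patch of muscle membrane packed with receptors. Agrin from the nerve binds the receptor LRP4, which activates the kinase MuSK with the help of the adaptor DOK7, and rapsyn (Rapsn) then anchors the receptors into clusters. Fetal muscle uses a receptor with the gamma subunit (Chrng), which is replaced after birth by the epsilon subunit (Chrne), while the alpha (Chrna1), beta (Chrnb1) and delta (Chrnd) subunits are common to both forms. ColQ, the collagen tail encoded by Colq, holds acetylcholinesterase in the synaptic cleft.

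The 250 bases before the RefSeq transcript start (GRCm38.p6, the mm10 build) are shown for the fetal and adult subunit genes, for the shared subunit gene Chrna1 and for Musk, since the results below turn on these genes. The starts in that table can differ from the gene limits given below, and most of the window for Musk and a small part of that for Chrne lie inside the gene. Sequences run 5′ to 3′ along the gene's own strand. Capitals mark E-boxes, written CANNTG, which myogenic factors such as MyoD and myogenin bind, and the N-box, written CCGGAA, which ETS factors bind in synaptic muscle nuclei. Both strands were searched, and no E-box overlapped an N-box. The windows are chr1:87205561-87205810 on the plus strand for Chrng, chr11:70619195-70619444 on the minus strand for Chrne, chr2:73580339-73580588 on the minus strand for Chrna1 and chr4:58285712-58285961 on the plus strand for Musk.
Chrng: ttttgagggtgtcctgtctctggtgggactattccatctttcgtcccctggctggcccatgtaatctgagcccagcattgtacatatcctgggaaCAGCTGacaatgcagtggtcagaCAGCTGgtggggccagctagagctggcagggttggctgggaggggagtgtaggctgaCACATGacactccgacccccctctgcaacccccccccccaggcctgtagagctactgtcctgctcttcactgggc
Chrne: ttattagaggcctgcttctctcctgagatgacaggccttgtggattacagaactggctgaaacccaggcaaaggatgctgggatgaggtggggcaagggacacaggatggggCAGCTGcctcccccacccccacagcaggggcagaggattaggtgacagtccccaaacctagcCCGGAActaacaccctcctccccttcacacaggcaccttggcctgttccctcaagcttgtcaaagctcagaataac
Chrna1: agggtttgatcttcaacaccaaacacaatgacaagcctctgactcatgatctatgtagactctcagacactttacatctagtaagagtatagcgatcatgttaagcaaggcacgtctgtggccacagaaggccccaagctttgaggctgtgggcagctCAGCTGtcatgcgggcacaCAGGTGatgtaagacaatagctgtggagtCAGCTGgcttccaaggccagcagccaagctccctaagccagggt
Musk: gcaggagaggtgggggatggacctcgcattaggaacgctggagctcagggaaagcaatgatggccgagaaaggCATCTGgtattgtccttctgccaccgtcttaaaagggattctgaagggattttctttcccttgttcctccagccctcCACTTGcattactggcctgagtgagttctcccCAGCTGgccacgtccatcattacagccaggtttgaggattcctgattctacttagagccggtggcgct

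Of the 10 genes, 6 matched the RefSeq promoter table, with 7 windows in all, the other genes with a window being Chrnb1 and Dok7. The Chrng window held 3 E-boxes, of which 2 read CAGCTG, at 155 and 132 bases before the start. Chrna1 also held 3, with CAGCTG at 92 and 44 bases, and Musk held 3, with CAGCTG at 68 bases. The Chrne window held a single E-box, at 138 bases, and the only N-box among the 7 windows, at 76 bases. An E-box stood in 6 of the 7 windows, against 66.2% of all 32851 windows in the table. CAGCTG stood in 4 of 7, against 13.0% of all windows, and the N-box in 1 of 7, against 12.0%. These matches describe letters and not binding.

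Library totals ran from 59722279 to 67575728 counts in KO and from 35181518 to 48021848 counts in WT, so depth and genotype cannot be told apart. Levels are given as CPM, counts scaled to a common library size after TMM normalization, and 3 counts correspond to 0.0392 to 0.0831 CPM. Pax1 was at 18.9 to 30.4 CPM in KO and 17.0 to 27.0 CPM in WT, no lower in KO, and so gives no check of the genotype labels. Male WT 2 had the least muscle RNA: the summed CPM of 29 sarcomere genes was 22218 there, the lowest of the 8. Elsewhere it was 26248 to 57269, female WT 1 being the next lowest. Mitochondrial genes took 4.56% and 15.6% of counts in male KO and 18.3% and 20.9% in male WT. In females they took 13.6% and 4.66% in KO and 5.55% and 7.27% in WT. The male genotypes did not overlap, so mitochondrial share and genotype cannot be told apart in males. Adipocyte markers summed to 251 to 489 CPM in KO and 844 to 5558 CPM in WT. None of these 10 markers was at 0 throughout, but Lep was at 0 CPM in male KO 2. Bone markers summed to 5319 to 9473 CPM in KO and 2742 to 5440 CPM in WT. Whether the adipocyte and bone markers play a part in the results below was not tested.

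All 10 genes were expressed in every library. Per kilobase of merged exons, averaged over the 8 libraries, Chrnb1 was highest at 8.80 ± 2.38 CPM per kb (SD, n = 8), followed by Rapsn at 7.14 ± 2.40, Chrnd at 7.14 ± 1.74, Chrng at 6.71 ± 2.35 and Chrna1 at 6.49 ± 1.87 CPM per kb. Neighbours in this order did not differ beyond their spread: Chrnb1 was above Rapsn in 6 of 8 libraries, Rapsn was above Chrnd in 3 of 8 and Chrng above Chrna1 in 4 of 8. Lrp4 averaged 4.31 ± 1.08 CPM per kb, below Chrna1 in 7 of 8 libraries. Colq at 2.55 ± 0.953, Musk at 1.77 ± 1.07 and Dok7 at 1.51 ± 0.614 CPM per kb formed a lower tier, with Musk above Dok7 in 5 of 8 libraries. Chrne, the adult subunit gene, was lowest at 0.180 ± 0.0577 CPM per kb and below Dok7 in all 8 libraries.

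**Figure D1:**
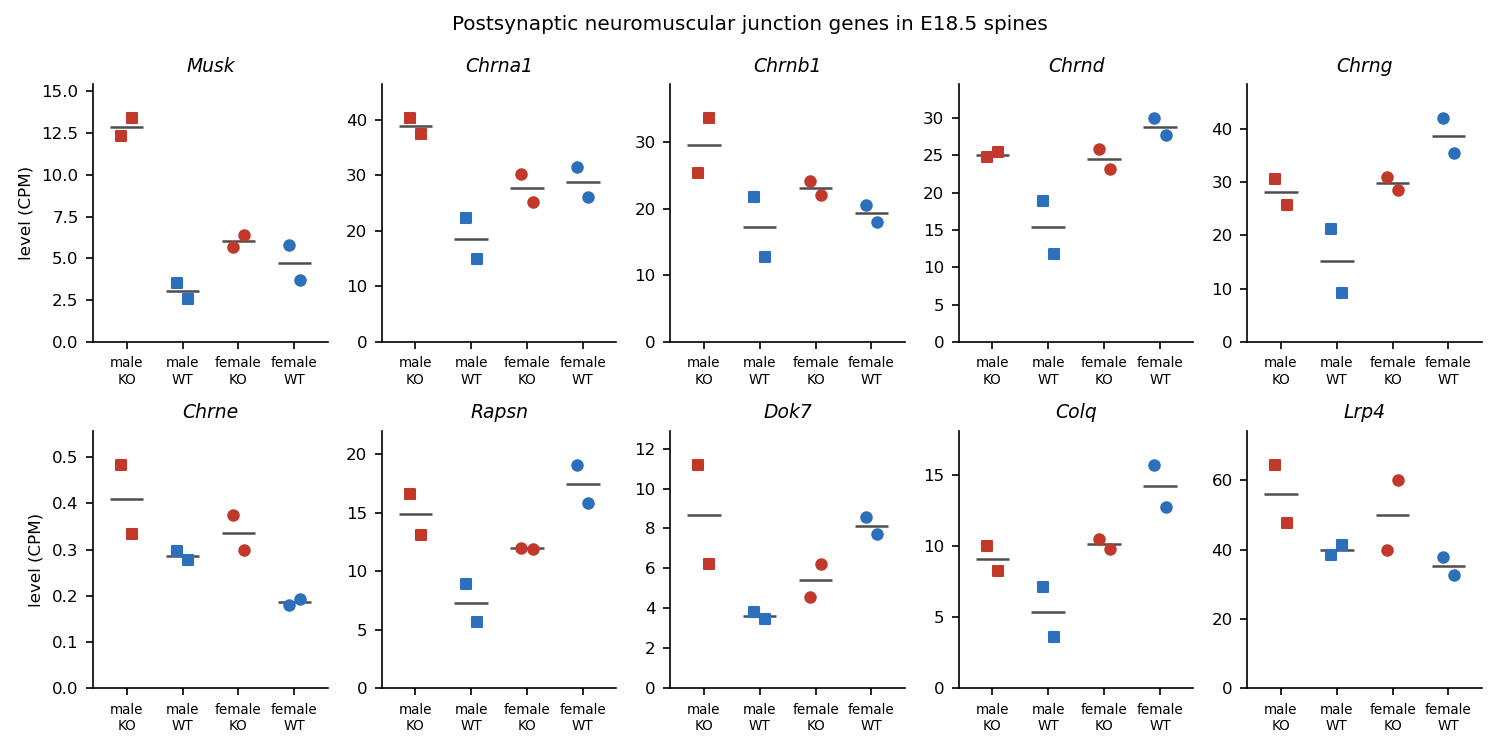
CPM of the 10 genes (y axis of each panel, starting at 0) in male KO, male WT, female KO and female WT; each point is a library (squares male, circles female; red KO, blue WT) and each bar the mean of 2. Musk stands at 12.3 and 13.4 CPM in male KO and at 2.58 to 6.41 CPM in the other 6 libraries, while Chrng, Rapsn, Dok7 and Colq are higher in male KO than in male WT and lower in female KO than in female WT.

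In male spines all 10 genes were higher in both KO libraries than in both WT libraries, against 19.7% of all genes tested. The difference was largest for Musk, while scaling to sarcomere counts turned Chrne and Lrp4 to lower in KO. Musk, the kinase that agrin activates (chr4:58285729-58377848, plus strand), was at 12.3 and 13.4 CPM in male KO and 3.53 and 2.58 CPM in male WT. It was at 5.68 and 6.41 CPM in female KO and 5.78 and 3.71 CPM in female WT. Both male KO libraries lay above, and both male WT libraries below, all 4 female libraries, and the female genotypes overlapped. The fitted difference in males was a log2 fold change of 2.07 (SE 0.30), a 4.21-fold difference between 12.9 ± 0.766 CPM in male KO and 3.05 ± 0.666 CPM in male WT (SD, n = 2 each). In females the log2 fold change was 0.35 (SE 0.29, 95% interval -0.32 to 1.01; -0.06 with scaling to sarcomere counts), with an adjusted p of 0.658 in edgeR's quasi-likelihood test with Benjamini-Hochberg adjustment over all genes tested, the test behind every adjusted p below unless another is named.

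Dok7, which docks on MuSK and boosts its activity (chr5:35056571-35087839, plus strand), was at 11.2 and 6.20 CPM in male KO and 3.80 and 3.48 CPM in male WT. In females it was at 4.59 and 6.24 CPM in KO and 8.57 and 7.70 CPM in WT. The genotypes did not overlap in either sex, but KO was the higher in males and the lower in females. The log2 fold change was 1.26 (SE 0.33) in males, and leaving out male KO 1 made it 0.77 and leaving out male KO 2 made it 1.63. The female value was -0.59 (SE 0.32, 95% interval -1.33 to 0.15, edgeR adjusted p = 0.56).

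Lrp4, the agrin receptor (chr2:91457456-91513901, plus strand), is also expressed in many tissues other than muscle. It was at 64.6 and 47.7 CPM in male KO, 38.5 and 41.4 CPM in male WT, 39.8 and 60.0 CPM in female KO and 37.9 and 32.7 CPM in female WT. KO lay above WT within each sex: the log2 fold change was 0.49 (SE 0.27) in males, where scaling to sarcomere counts turned it to -0.26, and 0.50 (SE 0.27, edgeR adjusted p = 0.553) in females. The male value was 0.26 without male KO 1, and the female value ran from 0.17 without female KO 2 to 0.77 without female KO 1. Female KO 1 lay inside the male WT range, so the 4 KO libraries and the 4 WT libraries overlapped. Lrp4 also had the narrowest range of the 10 genes, its highest library being 1.98 times its lowest, against 5.18 times for Musk.

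Rapsn, the receptor anchor (chr2:91035472-91045729, plus strand), was at 16.6 and 13.1 CPM in male KO, 8.88 and 5.63 CPM in male WT, 12.0 and 11.9 CPM in female KO and 19.1 and 15.8 CPM in female WT. Male KO exceeded male WT and female KO lay below female WT, with no overlap in either sex. The log2 fold change was 1.04 (SE 0.28) in males and -0.55 (SE 0.27, edgeR adjusted p = 0.548) in females. That adjusted p was the smallest of the 10 genes in females. The annotation places 4 bases of a Rapsn exon opposite Gm13778.

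Colq (chr14:31523082-31577863, minus strand) was at 9.97 and 8.23 CPM in male KO, 7.10 and 3.58 CPM in male WT, 10.5 and 9.79 CPM in female KO and 15.7 and 12.7 CPM in female WT. As with Rapsn, KO was the higher group in males and the lower in females, without overlap. The log2 fold change was 0.77 (SE 0.33) in males (0.36 if male WT 2 is left out, 1.35 if male WT 1 is), and -0.48 (SE 0.33, edgeR adjusted p = 0.596) in females. Colq shares 199 exon bases on its own strand with Gm49387, and the counting of shared reads is not given in the sources used here, so its values carry that uncertainty.

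Among the receptor subunits common to the fetal and adult forms, Chrna1 (chr2:73563281-73580338, minus strand) was at 40.3 and 37.5 CPM in male KO, 22.3 and 14.9 CPM in male WT, 30.3 and 25.1 CPM in female KO and 31.5 and 26.0 CPM in female WT. Only the male genotypes separated: the log2 fold change was 1.06 (SE 0.26) in males and -0.06 (SE 0.26, 95% interval -0.64 to 0.53, edgeR adjusted p = 0.94) in females.

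Chrnb1 (chr11:69784036-69795966, minus strand) was at 25.4 and 33.6 CPM in male KO, 21.7 and 12.7 CPM in male WT, 24.2 and 22.1 CPM in female KO and 20.6 and 18.0 CPM in female WT. All 4 KO libraries lay above all 4 WT libraries, as they also did for Chrne, which makes 2 of the 10 genes, against 1.68% of all genes tested. The margins were narrow: the lowest KO and highest WT libraries were at 22.1 and 21.7 CPM for Chrnb1. For Chrne they were at 0.299 and 0.296 CPM. The log2 fold change was 0.78 (SE 0.29) in males (0.44 if male WT 2 is left out, 1.21 if male WT 1 is). In females it was 0.26 (SE 0.29, edgeR adjusted p = 0.724) and turned to -0.15 with scaling to sarcomere counts.

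Chrnd and Chrng, the delta and gamma subunit genes, are neighbours on chromosome 1 (chr1:87190597-87200070 and chr1:87205811-87211835, both plus strand), with 5740 bases between them. Chrnd was at 24.8 and 25.4 CPM in male KO, 18.9 and 11.8 CPM in male WT, 25.9 and 23.2 CPM in female KO and 30.0 and 27.7 CPM in female WT. Chrng was at 30.5 and 25.7 CPM in male KO, 21.2 and 9.25 CPM in male WT, 31.0 and 28.5 CPM in female KO and 42.0 and 35.4 CPM in female WT. For both genes KO was above WT in males and below WT in females, male WT 2 was the lowest library and female WT 1 the highest.
The log2 fold change of Chrnd was 0.71 (SE 0.26) in males and -0.23 (SE 0.26, edgeR adjusted p = 0.723) in females. That of Chrng was 0.89 (SE 0.36) in males and -0.38 (SE 0.35, edgeR adjusted p = 0.682) in females. Leaving out male WT 2 made the male value 0.41 for both genes, and leaving out male WT 1 made it 1.60 for Chrng and 1.09 for Chrnd.

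Chrne, the adult subunit gene (chr11:70614883-70619213, minus strand), had few counts: 37 and 18 in male KO, 12 and 12 in male WT, 21 and 21 in female KO and 8 and 7 in female WT. These correspond to 0.484 and 0.334 CPM in male KO, 0.296 and 0.277 CPM in male WT, 0.375 and 0.299 CPM in female KO and 0.180 and 0.194 CPM in female WT. KO libraries were above WT libraries within each sex, by a log2 fold change of 0.52 (SE 0.47; -0.15 with scaling to sarcomere counts) for males and 0.84 (SE 0.50, 95% interval -0.29 to 1.97, edgeR adjusted p = 0.569) for females. At these counts a difference in either sex was not detectable beyond the interval of the fit.

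The balance of the fetal and adult subunits was read from the Chrne share of Chrng and Chrne counts. It was 1.56% (95% Clopper-Pearson interval 1.10 to 2.15%) and 1.28% (0.763 to 2.02%) in male KO, and 1.38% (0.715 to 2.40%) and 2.91% (1.51 to 5.02%) in male WT. In females it was 1.19% (0.740 to 1.82%) and 1.04% (0.643 to 1.58%) in KO, and 0.426% (0.184 to 0.838%) and 0.545% (0.219 to 1.12%) in WT. The intervals cover counting error only. Female WT thus held the smallest adult share, resting on 8 and 7 Chrne counts, and its intervals overlapped those of female KO. In males the shares themselves overlapped between the genotypes.
Per length of merged exons, Chrng exceeded Chrne 25.6-fold and 31.2-fold in male KO, 29.0-fold and 13.6-fold in male WT, 33.6-fold and 38.7-fold in female KO and 94.8-fold and 74.1-fold in female WT. The fetal form prevailed in every library. The log2 ratio of Chrng to Chrne was lower by 1.22 in female KO than in female WT, without overlap, while in males KO was 0.51 above WT, a value that became -0.04 if male WT 2 was left out and 1.06 if male WT 1 was.

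**Figure D2:**
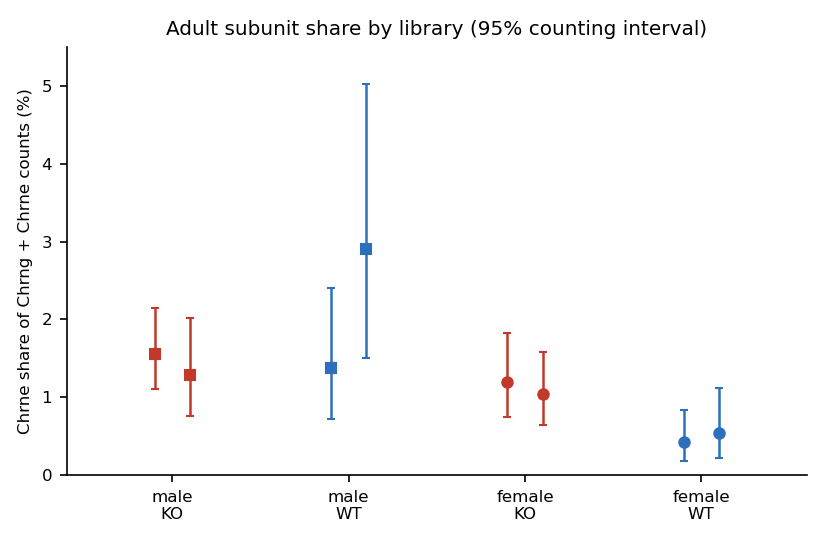
Chrne as a percent of Chrng plus Chrne counts in each library (y axis, starting at 0; squares male, circles female, red KO, blue WT), with 95% Clopper-Pearson intervals that cover counting error only. The female WT libraries sit at 0.426% and 0.545%, below the 1.04% to 2.91% of the other 6 libraries, but their intervals overlap those of female KO.

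Read as a group in males, the 10 genes had a median log2 fold change of 0.83, against -0.06 over all genes tested, and 10 of 10 were positive. Leaving out male WT 2, the library with the least sarcomere RNA, made the median 0.51, and leaving out male WT 1 made it 1.34. For 10 of 10 genes both male KO libraries lay above both male WT libraries, against 19.7% of all genes. edgeR called 0 of the 10 at an adjusted p under 0.05 (background 0%), and limma voom also called 0 (0%). At an unadjusted p under 0.05, edgeR counted 8 of 10 as higher in KO (background 7.53%), the exceptions being Chrne and Lrp4. DESeq2, run as an alternative, called 4 as higher, Musk, Chrna1, Rapsn and Dok7, against a background of 1.84%.

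The value named in choosing the list was a male one, although earlier results of all these libraries were known. In females the median log2 fold change was -0.14, against 0.03 over all genes, with 4 of 10 positive. None of the 10 passed the threshold: edgeR's adjusted p ran from 0.548 to 0.94, and edgeR, limma voom and DESeq2 each called 0, against backgrounds of 0%, 0% and 0.795% of all genes. At an unadjusted p under 0.05 edgeR also counted 0, against 9.27%. Female KO lay above female WT for 3 genes, Chrnb1, Chrne and Lrp4 (background 25.9%), and below it for 5, Chrnd, Chrng, Rapsn, Dok7 and Colq (background 26.2%). The 3 in 10 is near its background and the 5 in 10 above it, a difference that was not tested. For those 5 genes both male KO libraries were also above both male WT libraries, against 6.09% of all genes for the joint pattern.
Over both sexes, in a fit with sex as a covariate, the median was 0.41, against -0.01 over all genes, and 10 of 10 were positive, but 2 of 10 with scaling to sarcomere counts, which moved the median of all genes to -0.58 and that of the 10 to -0.12. The median was 0.17, with 7 positive, without male WT 2. edgeR, limma voom and DESeq2 called 0 of 10, against 0%, 0% and 0.160%, the last for genes higher in KO. At an unadjusted p under 0.05, 3 of 10 were higher, Musk, Chrnb1 and Lrp4, against 2.84%. That fit includes the male values known when the list was chosen, so the count describes it only.

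**Figure D3:**
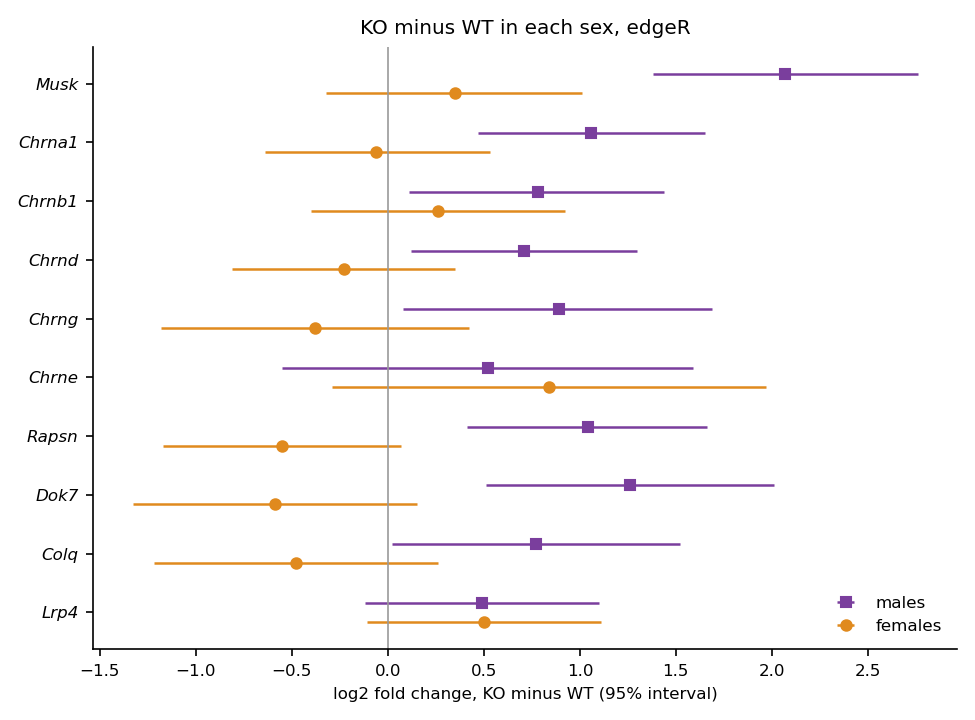
Log2 fold change of KO over WT (x axis) with 95% intervals from edgeR for each of the 10 genes (y axis), males and females in separate colours. In males all 10 lie above 0, from 0.49 to 2.07, but Chrne and Lrp4 turn negative with scaling to sarcomere counts; in females they run from -0.59 to 0.84 and every interval includes 0.

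The difference between the sexes in the KO effect, female minus male, had a median of -1.19 over the 10 genes, against 0.03 over all genes. It was -1.85 (SE 0.46) for Dok7, -1.73 (SE 0.42) for Musk, -1.58 (SE 0.39) for Rapsn, -1.26 (SE 0.50) for Chrng, -1.25 (SE 0.46) for Colq, -1.12 (SE 0.36) for Chrna1 and -0.94 (SE 0.36) for Chrnd. These 7 genes had an unadjusted p under 0.05 in edgeR (background of lower genes 7.13%), but the difference contains the male values known when the list was chosen, so the counts describe it only. Chrnb1 at -0.51 (SE 0.41), Chrne at 0.32 (SE 0.68) and Lrp4 at 0.01 (SE 0.38) did not. After adjustment edgeR and limma voom called 0 (0% and 0%), and DESeq2 called Musk, Rapsn and Dok7, against 0.906% of all genes. Leaving out male WT 2 made the median -0.82, and leaving out male WT 1 made it -1.64.

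The WT groups of the sexes differed on their own. Both female WT libraries were above both male WT libraries for 7 of the 10 genes (background 31.0%), with log2 differences from 0.63 for Chrna1 to 1.41 for Colq, and below them for 2, Chrne and Lrp4 (background 35.1%). Between the KO groups, both female KO libraries were below both male KO libraries for 4 genes, Musk, Chrna1, Chrnb1 and Rapsn (background 13.7%), with a log2 difference of -1.09 (SE 0.29) for Musk. Differences of Chrng and Colq between female KO and male KO were 0.08 (SE 0.35) and 0.16 (SE 0.32). For these genes the KO groups thus lay close together and the WT groups on either side.

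Whole spines carry varying amounts of skeletal muscle, and in bulk RNA fewer muscle fibres and less RNA per fibre cannot be told apart. The summed CPM of 29 sarcomere genes was 45997 and 57269 in male KO, 46741 and 22218 in male WT, 48096 and 33575 in female KO and 26248 and 36121 in female WT. On the log2 scale this sum was 0.67 higher in KO than in WT in males and 0.38 higher in females, and the genotypes overlapped in both sexes. That overlap held for the sum only. With the 29 genes weighted alike, as a mean of log2 CPM, both KO libraries lay above both WT libraries in each sex. In edgeR 28 of the 29 genes had a positive log2 fold change in males (median 1.03) and 24 in females (median 0.42), and edgeR called 0 in either sex. Leaving out male WT 2 made the male median 0.50, and leaving out male WT 1 made it 1.81. Unadjusted, 11 in males and 4 in females had a p under 0.05, and DESeq2 called 6 and 3, all higher. Over all genes tested, 7.53% were higher in males and 9.27% differed in either direction in females unadjusted. DESeq2 called 1.84% as higher in males and 0.795%, in either direction, in females. These shares are the background for this list and those below, in those directions only. Shares of genes lower in male KO, or changed in a single direction in females, were not computed. Myh2, a fast myosin heavy chain, was at 104 and 63.1 CPM in male KO, 43.9 and 18.3 CPM in male WT, 38.0 and 46.0 CPM in female KO and 7.02 and 16.2 CPM in female WT.

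Set against sarcomere RNA, the male genotypes separated for Musk and overlapped for the other 9 genes. Per 10000 CPM of sarcomere transcripts, Musk was at 2.68 and 2.34 CPM in male KO, 0.754 and 1.16 in male WT, 1.18 and 1.91 in female KO and 2.20 and 1.03 in female WT. It was the only gene of the 10 with both male KO libraries above both male WT libraries on this scale, with a log2 difference of 1.42. Of the other 9 genes, 7 differed by 0.08 to 0.53 and Chrne and Lrp4 by -0.18 and -0.20, and all 9 overlapped between the male genotypes. The median of the 10 was 0.25 in males, against 0.93 for the unscaled levels, and it ran from -0.01 (without male KO 1) to 0.54 when single male libraries were left out. It was -0.09 when the sarcomere genes were weighted alike, as a mean of log2 CPM, in place of their sum.
In females the median was -0.53 on this scale. Chrnd at -0.62, Chrng at -0.76, Rapsn at -0.92, Dok7 at -0.99 and Colq at -0.86 were below WT in both KO libraries, and Chrne at 0.46 was above. The share of all genes whose genotypes separate on this scale was not computed for either sex, so these counts have no background. When the whole table was scaled to sarcomere counts in edgeR, the median of all genes moved to -0.81 in males and -0.35 in females, and the median of the 10 genes was 0.28 in males and -0.56 in females.

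**Figure D4:**
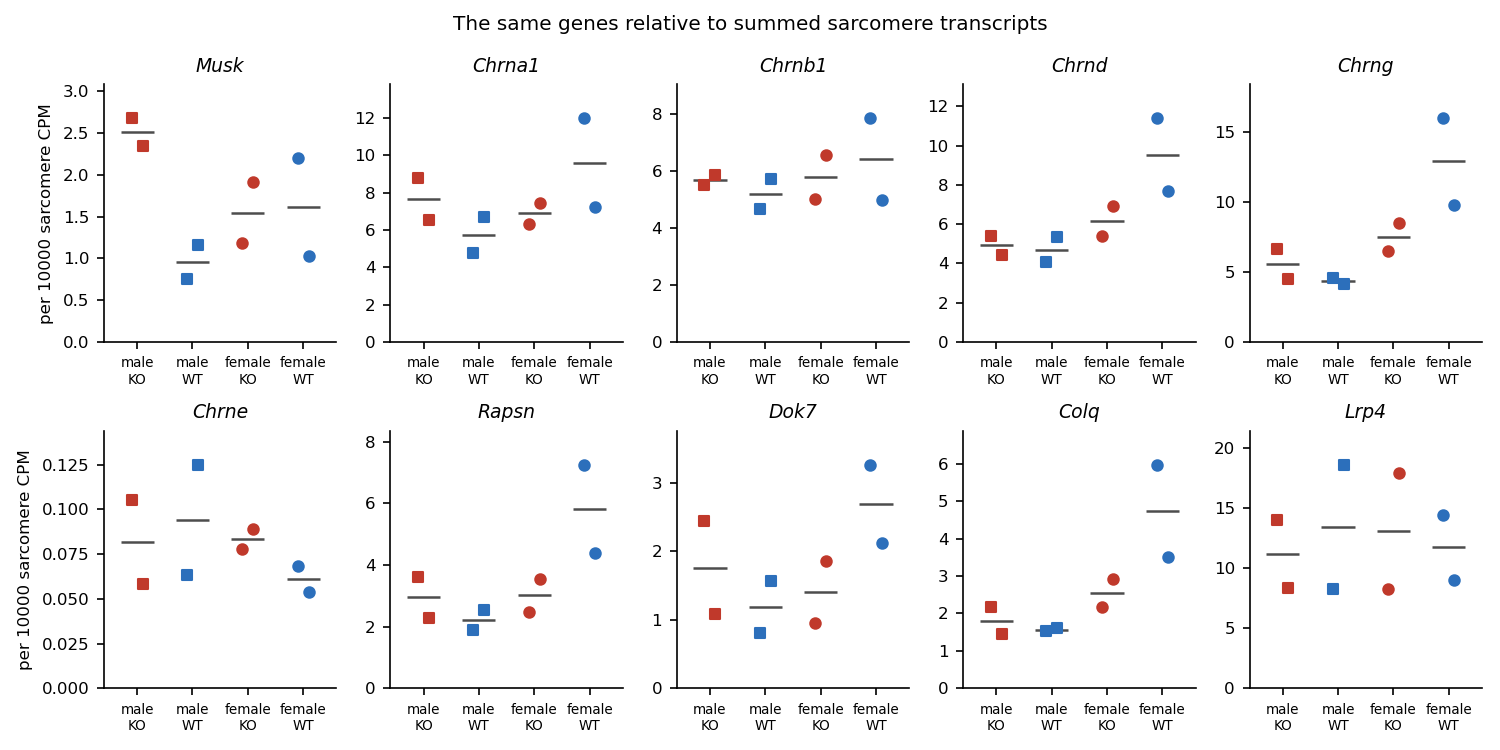
CPM of the 10 genes per 10000 summed CPM of 29 sarcomere genes (y axis of each panel, starting at 0) in male KO, male WT, female KO and female WT; each point is a library (squares male, circles female; red KO, blue WT) and each bar the mean of 2. The male genotypes separate for Musk, at 2.34 and 2.68 in male KO and 0.754 and 1.16 in male WT, and overlap for the other 9 genes.

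The partner list of the junction held 34 genes, among them the nerve and matrix ligands, the dystroglycan complex, neuregulin receptors and cytoskeletal linkers, and all 34 were tested. Their median log2 fold change was 0.59 in males, with 30 positive, and -0.01 in females, with 16 positive, while scaling to sarcomere counts made the medians -0.12 and -0.37. edgeR called 0 in either sex. Unadjusted, 16 were higher in male KO and 0 lower, and 1 was higher and 1 lower in female KO, a smaller share than the 9.27% of all genes, while DESeq2 called 5 as higher in males and 0 in females. For Syne1, which encodes a nuclear envelope protein that anchors muscle nuclei, the male log2 fold change was 0.56 (SE 0.22) and the female one 0.59 (SE 0.22, edgeR adjusted p = 0.532). For Lama2, the laminin chain of muscle basement membrane, these were 0.71 (SE 0.25) and 0.51 (SE 0.24, edgeR adjusted p = 0.548).
For Dtna, which encodes a dystrobrevin of the postsynaptic complex, the male value was 0.46 (SE 0.33) and the female one 0.66 (SE 0.33). Dnaja3, whose product Tid1 binds MuSK, gave -0.26 (SE 0.39) for males and -1.03 (SE 0.39, edgeR adjusted p = 0.532) for females, with female WT 2 at 155 CPM and the other 7 libraries at 49.6 to 79.1 CPM. Agrn, the gene of agrin, which was chosen for mention after its values were seen, was at 177 and 90.6 CPM in male KO, 98.2 and 109.7 CPM in male WT, 98.5 and 155 CPM in female KO and 138 and 121 CPM in female WT. Its genotypes overlapped in both sexes.

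Myogenic regulators gave a pattern close to that of the subunit genes for some members and not for others. Of 13 genes, 11 had a positive log2 fold change in males (median 0.50) and 7 in females (median 0.01), and the medians became -0.16 and -0.33 with scaling to sarcomere counts. edgeR called 0 in either sex, with 4 higher in males and 1 lower in females at an unadjusted p under 0.05, and DESeq2 called 3 as higher in males and 0 in females. Mef2a, a transcription factor of muscle gene expression, was at 43.2 and 39.2 CPM in male KO, 17.8 and 20.0 CPM in male WT, 31.0 and 37.8 CPM in female KO and 32.2 and 36.1 CPM in female WT. Male WT was thus the low group for Mef2a, the male log2 fold change being 1.12 (SE 0.22) and the female one 0.01 (SE 0.21).
Myf6, Six4 and Mef2c differed by 0.34 (SE 0.30), 0.36 (SE 0.25) and -0.05 (SE 0.32) in males and by 0.62 (SE 0.30), 0.27 (SE 0.25) and 0.60 (SE 0.32) in females. Myog and Myod1, the genes of myogenin and MyoD, were chosen for mention after their values were seen. Myog was at 67.0 and 64.3 CPM in male KO, 52.2 and 30.2 CPM in male WT, 69.9 and 66.6 CPM in female KO and 123 and 83.7 CPM in female WT. Like Chrng, it was highest in female WT 1 and lowest in male WT 2, with KO above WT in males and below WT in females. For Myod1 the male log2 fold change was 0.69 (SE 0.38) and the female one -0.72 (SE 0.38, edgeR adjusted p = 0.553).

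A list of 15 genes known to respond to the loss of nerve contact in muscle included Chrng, Chrna1 and Myog. Its median log2 fold change was 0.67 in males and 0.48 in females, with 10 of 15 positive in each, and became 0.06 and 0.12 with scaling to sarcomere counts. The male median was 0.33 without male WT 2. edgeR called 0 in either sex. Unadjusted, 7 were higher and 2 lower in males, and 3 higher and 1 lower in females, and DESeq2 called 5 as higher in males and 0 in females. The 2 lower in males were Fgfbp1 at -1.34 (SE 0.52) and Hdac9 at -0.85 (SE 0.31). Both were chosen for mention after their values were seen. Fbxo32, a ubiquitin ligase of muscle atrophy, was at 34.6 and 55.8 CPM in male KO, 11.2 and 11.3 CPM in male WT, 11.1 and 10.5 CPM in female KO and 6.93 and 8.15 CPM in female WT. Trim63, another such ligase, was at 22.6 and 54.5 CPM in male KO, 12.8 and 7.06 CPM in male WT, 15.2 and 12.1 CPM in female KO and 10.2 and 11.4 CPM in female WT. Male KO stood clear of the other groups for both, as it did for Musk. The male log2 fold change was 2.00 (SE 0.27) for Fbxo32 and 1.96 (SE 0.44) for Trim63, and the female one 0.53 (SE 0.26) for Fbxo32 and 0.34 (SE 0.42) for Trim63.
Runx1, a transcription factor of denervated muscle, differed by 0.90 (SE 0.21) in males and 0.52 (SE 0.20, edgeR adjusted p = 0.532) in females.

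On the nerve side, the summed CPM of 10 motor neuron markers was 299 to 416 in KO and 238 to 340.1 in WT, and none of the markers was at 0. Their median log2 fold change was -0.25 in males, or 0.04 without male WT 2, and 0.24 in females. edgeR and DESeq2 called 0 in either sex, and 0 had an unadjusted p under 0.05. The 11 genes of neuronal acetylcholine receptor subunits had medians of -0.14 in males and 0.44 in females, and edgeR called 0. Unadjusted, 2 were higher and 2 lower in males and 0 in females, and DESeq2 called 1 as lower in males. Schwann cell markers, 10 genes, had medians of 0.33 and 0.13, with 3 higher in males and 1 in females unadjusted, 0 called by edgeR and 2 called as higher by DESeq2 in males.
Bone markers, 10 genes, had medians of 0.18 in males and 0.68 in females, and adipocyte markers -3.00 in males, or -1.08 without male WT 1, and -4.35 in females. edgeR called 0 of either list, while unadjusted 2 bone markers were higher in males and 4 in females, and 6 adipocyte markers were lower in males and 10 in females. DESeq2 called 1 bone marker as higher and 8 adipocyte markers as lower in females, and 0 in males.

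Across the 8 libraries the 10 genes did not follow a single profile. Likeness was measured as the root mean square difference of centred log2 CPM. The closest pair was Chrng and Colq, at 0.09, followed by Chrnd and Rapsn at 0.19 and Rapsn and Colq at 0.20. The farthest were Chrne and Colq at 0.79, Chrng and Chrne at 0.78 and Musk and Colq at 0.77. Lowest in male WT 2 were 8 of the 10 genes, the exceptions being Chrne, lowest in female WT 1, and Lrp4, lowest in female WT 2. The share of all genes lowest in male WT 2 was not computed, so this count cannot be told from a trait of that library.
Outside the list, the 5 genes closest to Musk were Agbl1 at 0.25, Prrg4 at 0.29, Cdh17 at 0.30, Rhoh at 0.31 and Xirp1 at 0.32. Xirp1, which encodes an actin-binding protein of striated muscle, was at 108 and 76.0 CPM in male KO, 37.8 and 18.8 CPM in male WT, 40.4 and 47.9 CPM in female KO and 39.0 and 42.8 CPM in female WT. Closest to Chrna1 were Gpc4 and Slc20a2 at 0.13, Svil at 0.14 and Sgca and Slc44a2 at 0.15. Closest to Lrp4 were Kif1b and Prkca at 0.07 and Hspa12a, Clgn and Fry at 0.09. The distances for Lrp4 are thus smaller than those for Musk, whose own range over the libraries is wider.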

How the data were processed

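The authors deposited 1 table of raw gene counts, with a column for each of the 8 libraries. Per the submitters' processing notes, FastQC 1.0.0, MultiQC 1.0.0, HISAT2, featureCounts and mm10 were used, in no stated order. Per the labels' protocols RNA was extracted with TRIzol and libraries made with a stranded mRNA kit. For the annotation, strand setting and multi-mapped reads, settings were not given in the sources used here. Entrez IDs took symbols and coordinates from RefSeq (GRCm38.p6), for 25275 of 27179 genes; exon lengths and overlaps came from a GENCODE annotation of the same assembly. The 1904 others carried 0.38% to 1.64% of counts and were kept in the fits.

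Genes were filtered with filterByExpr (minimum count 10), scaled with TMM and fitted over all 8 libraries with edgeR 4.0.16 (quasi-likelihood, R 4.3.3), as 4 group means or, over both sexes, as sex plus genotype, with Benjamini-Hochberg adjustment over 18104 genes. SE is the absolute log2 fold change divided by the root of F. The biological coefficient of variation was 27.8%. The script was tested on simulated data. Alternatives were DESeq2 1.42.0, its size factors in edgeR, limma 3.58.1 voom, no filter, mitochondrial genes left out, scaling to sarcomere counts, a replicate block and each library left out. Members and lists were chosen with earlier results of these data known. All 10 members were named, up to 4 genes of every other list by the smallest p over both sexes, and the 5 genes most like Musk, Chrna1 and Lrp4. Some genes that this rule names are not reported here. Within each group the replicates were no duplicates (chi-square over its degrees of freedom 131 to 645), so all libraries were kept.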

Additional observations from a re-analysis of the deposited data

Results flagged for a closer look

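For 5 genes every KO library lay above every WT library in males and below every WT library in females, against 6.09% of all genes tested. The female minus male difference in the log2 fold change was -0.94 for Chrnd, -1.26 for Chrng, -1.58 for Rapsn, -1.85 for Dok7 and -1.25 for Colq. This difference contains the male values known when the list was chosen, so its fit is a description and not a test of these genes, and whether the sexes differ for them was not tested independently. Of 20 groups of 4 libraries (the 4 KO or 4 WT libraries of each gene), none held a library past Dixon's 95% limit.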

How the results depend on the processing

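Of the 640 log2 fold changes of the 10 genes under the alternatives, 28 had the other sign at 2 decimals: 2 in males, 4 in females, 13 over both sexes and 9 in the difference between sexes (all of Lrp4, whose difference was 0.01). With no filter on low counts edgeR called 1 of the 10 in males (Musk), against 39 of all 22732 genes then tested. The male Musk value was known when the list was chosen, so this call is a description only. DESeq2 called 4 as higher in males and 3 as lower in the difference between sexes, against 1.84% and 0.906% of all genes. There edgeR called 0, and the cause was not tested. In females, scaling to sarcomere counts gave -0.06 for Musk and -0.15 for Chrnb1, and Chrna1 ran from -0.20 to 0.08 with single libraries left out (0.07 without female KO 2, 0.08 without female WT 1). The male difference in the log2 ratio of Chrng to Chrne ran from -0.04 to 1.06. Over both sexes, leaving out male WT 2 gave -0.07 for Chrng, -0.06 for Rapsn and -0.16 for Colq, and leaving out male KO 1 gave -0.02 for Dok7 and -0.03 for Colq. Same-numbered samples did not deviate together (correlations -0.53 to 0.18), which gives no sign that the numbers pair the samples. The -0.53 was between male KO and female KO, where samples of unlike number deviated alike. Such correlations cannot exclude a pairing or a batch. A replicate block called 0 of the 10 in every comparison, with medians of 0.89 in males, -0.14 in females, 0.41 over both sexes and -1.21 for the difference. With the female WT numbers crossed, chosen after seeing the data, it also called 0, and a fit with the female KO numbers crossed was not run. With 2 libraries a group, only large differences can pass, and Chrne at 7 to 37 counts is limited by depth.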
